A study of Mus musculus with 9 samples.

Results

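Expression of 5 genes that handle retinoids around the photoreceptor was compared between the choroid (CH), the retinal pigment epithelium (RPE) and the photoreceptors (PR) of the mouse. The genes are Abca4, Rdh8, Rdh12, Rbp3 and Retsat, and they are 5 of the 31709 genes on the array. They were chosen by name, as probes that are not controls and whose gene name in the scanner files is one of these symbols. All 5 were found, on 6 of the 39429 probes, with 2 probes for Abca4 and 1 for each of the others, and no further probe carried their accessions.

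The 3 tissues were cut by laser from cryosections of eyes of healthy female C57BL/6 mice (substrain C57BL/6JOlaHsd in the study's methods), with no genetic change and no treatment, and each had 3 samples of 1 whole eye (9 dual-colour Agilent arrays). The labels give an age of 6 months with a range of 2 weeks, and the methods of the study give a younger age. The RPE was removed before the CH was cut out, and PR cells were found with a Cresyl Violet stain. Amplified RNA of the tissue carried Cy5 and was hybridised against Cy3-labelled RNA of mouse choroid and RPE, a common reference with the same strain, sex and age, with the dyes never swapped. Whether the CH, RPE and PR samples came from the same mice is not stated in the sources used here, and p-values then measure the spread between these samples.

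Vision starts when light turns 11-cis-retinal in the outer segment into all-trans-retinal. ABCA4, a flippase of the outer segment discs, moves retinal conjugated to phosphatidylethanolamine to the cytoplasmic face. There RDH8 of the outer segment and RDH12 of the inner segment reduce all-trans-retinal to retinol. IRBP, the product of Rbp3, is secreted by photoreceptors and carries retinoids across the space to the RPE. There LRAT and RPE65 make new 11-cis-retinoid and RDH5 oxidises it. RETSAT, a saturase of all-trans-retinol, is not a step of this cycle. In humans, variants of ABCA4 cause Stargardt disease and variants of RDH12 cause an early retinal dystrophy.

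The probes of Abca4, Rdh8 and Retsat are shown first, Abca4 because its 2 probes read the transcript at different positions, and the others because Rdh8 moved least of the 5 genes and Retsat in the opposite direction. Positions are those of the files (mouse assembly mm9). The 2 probes of Abca4 (NM_007378) lie at chr3:121876727-121876786 and at chr3:121873884-121876698. The second spans 2815 bases of the genome with 60 bases of probe, so its bases lie on more than 1 exon. The probe of Rdh8 (NM_001030290) lies at chr9:20630548-20630607 and that of Retsat (NM_026159) at chr6:72556656-72556715. All letters are in lower case because no base is singled out.
Abca4, A_55_P2146034: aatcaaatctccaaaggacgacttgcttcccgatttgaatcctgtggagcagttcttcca
Abca4, A_55_P2095084: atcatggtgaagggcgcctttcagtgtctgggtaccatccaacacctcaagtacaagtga
Rdh8, A_55_P1970570: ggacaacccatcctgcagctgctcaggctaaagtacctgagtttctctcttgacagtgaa
Retsat, A_51_P319070: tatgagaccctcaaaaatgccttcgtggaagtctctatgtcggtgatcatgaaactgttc

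The probes of Rdh12 (NM_030017, chr12:80323587-80323646) and Rbp3 (NM_015745, chr14:34777336-34777395) each contain a polyadenylation signal, AATAAA or ATTAAA, and are not printed. Which exon or untranslated region a probe lies in was not looked up, since no annotation of mm9 was used here.

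Shown next are the 250 bases before the start sites of the 3 genes whose RNA was higher in the PR, taken from RefSeq on GRCm38.p6, all on the plus strand. The letters TAATCC, the core bound by the homeobox factors CRX and OTX2, and TGCTGA, a part of the site of the rod factor NRL, were searched on both strands, and matches are in capitals. The 2 motifs share no overlapping match here.
Abca4, chr3:122044210-122044459: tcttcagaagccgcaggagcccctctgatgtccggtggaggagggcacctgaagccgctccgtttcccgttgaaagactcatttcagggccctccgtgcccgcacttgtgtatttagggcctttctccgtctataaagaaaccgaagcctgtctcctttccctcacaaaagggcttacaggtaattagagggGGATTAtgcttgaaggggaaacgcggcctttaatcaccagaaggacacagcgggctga
Rdh12, chr12:79208663-79208912: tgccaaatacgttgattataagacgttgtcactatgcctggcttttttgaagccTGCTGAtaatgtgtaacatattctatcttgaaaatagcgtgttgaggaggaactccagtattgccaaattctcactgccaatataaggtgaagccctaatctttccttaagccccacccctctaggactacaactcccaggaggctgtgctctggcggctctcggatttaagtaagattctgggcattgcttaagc
Rbp3, chr14:33953753-33954002: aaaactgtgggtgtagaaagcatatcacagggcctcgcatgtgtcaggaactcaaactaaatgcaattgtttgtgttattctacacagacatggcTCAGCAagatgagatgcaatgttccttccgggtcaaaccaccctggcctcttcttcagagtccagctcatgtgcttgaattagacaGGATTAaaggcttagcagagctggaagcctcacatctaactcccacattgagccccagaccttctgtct

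TAATCC was found on the opposite strand of Abca4, ending 53 bases before the start site, and of Rbp3, ending 64 bases before it. TGCTGA was found in Rdh12, 191 bases before the start site, and on the opposite strand of Rbp3, 150 bases before it. Over all 32851 promoters of the table, 6.25% held TAATCC and 16.1% held TGCTGA in the same window. The windows of Rdh8 and Retsat held neither run of letters. A match is a description of the sequence and not a site shown to be bound.

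All 6 probes were well above background in both channels on all 9 arrays and none was saturated, so no value is only a bound. The Cy5 signal was between 610 and 5344 times the local background for Rbp3 and between 516 and 3924 times for the first probe of Abca4. Rdh8 was dim, at 5.43 to 11.2 times the local background, with a Cy5 signal between 277 and 595 as scanned. The reference gave a clear Cy3 signal for all of them, between 22690 and 41220 for Rbp3. A log2 ratio near 0 therefore means a level close to that of the choroid and RPE reference, and not the absence of the transcript.

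Rbp3, Rdh12 and Abca4 were higher in PR than in both other tissues, by 3.14 to 7.16 fold. Retsat was 3.26 fold lower in PR than in RPE. Rdh8 differed by at most 1.40 fold between any pair of tissues with the processing chosen here. A gene was called where its brightest probe differed with a fold change above 2.5 and a limma adjusted p below 0.01. Of the 5 genes, 3 were called higher in PR than in RPE, a direction in which 5.23% of all genes were called. Only Retsat was called lower, against 10.9% of all genes. Against the CH, the same 3 genes were called higher in the PR, where 6.08% of all genes were, and 0 were called lower, where 12.7% were. Between the RPE and the CH, 0 of the 5 were called higher and 0 lower, against 0.18% and 1.75% of all genes. For the counts of 0, at an unadjusted limma p below 0.05, Retsat was lower in PR than in CH, as were 27.5% of all genes, and Abca4 and Retsat were higher in RPE than in CH, as were 16.8%, with 0 lower there, against 16.8%. The median log2 difference of all genes was 0.01 for PR minus RPE, 0.05 for PR minus CH and 0.03 for RPE minus CH. Since the tissues are bulk samples, fewer cells of a type and less RNA per cell cannot be told apart.

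**Figure D1:**
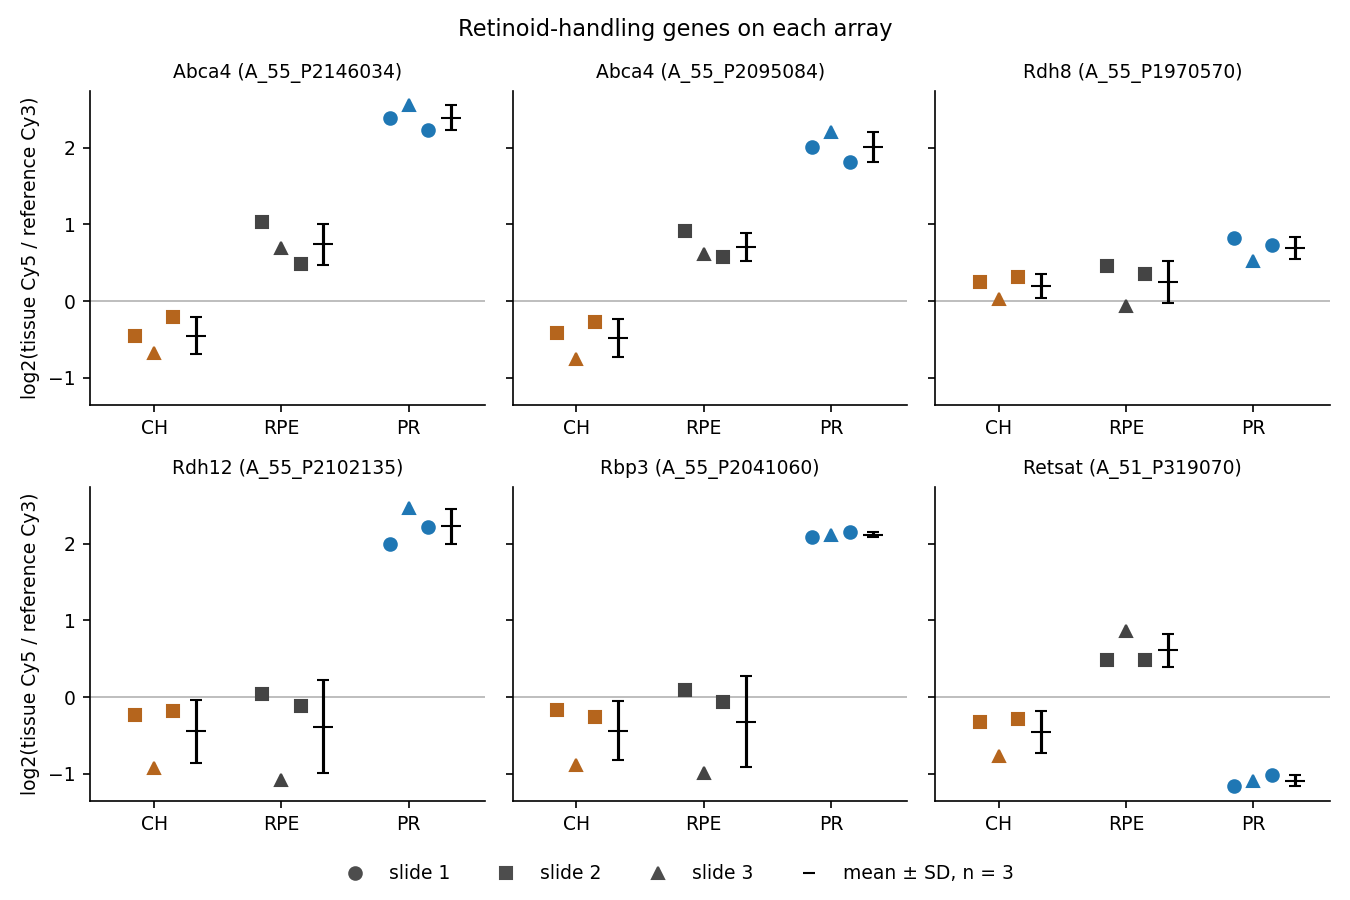
Log2 ratio of tissue Cy5 to reference Cy3 on each array, for the 6 probes of the 5 genes, in the CH, RPE and PR. Points are arrays (marker shape gives the slide), and bars are the mean ± SD of 3 arrays. The PR arrays stand above all others for Abca4, Rdh12 and Rbp3, narrowly so for Rdh8, and below all others for Retsat.

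Marker genes were compared to check the dissection. All 10 rod markers and all 8 cone markers were higher in PR than in RPE. The cone markers were higher by 2.41 to 4.33 on the log2 scale. The 5 rod markers that were not saturated on all PR arrays were higher by 2.92 to 4.68, and the other 5 have only a bound. Of the 6 measured RPE markers, 5 were lower in PR than in RPE and 4 were higher in RPE than in CH, while Best1 was close to background, with 1 RPE array of 3 well above it. Rpe65 was at least 7.18 fold and Ttr at least 2.62 fold lower in PR than in RPE, bounds because both were saturated on all RPE arrays. Col1a1, a collagen of fibroblasts, was lower in RPE than in CH by a log2 difference of -3.62, and Pecam1 of endothelium by -0.17, which did not pass. Of the endothelium markers, 0 of 7 were called between the RPE and the CH, at a median of -0.07. All 5 pigment cell markers were lower in PR than in RPE, and 3 of them were also lower in RPE than in CH (median -1.54). Müller glia and inner retina markers were mixed, with 0 of 6 and 3 of 11 called higher in PR than in RPE and 2 lower in each list. Of all spots, between 63.1% and 71.9% were well above background in Cy5 on 8 of the arrays. RPE replicate 2 stood apart with 91.8%. Slide 1 held PR replicates 1 and 3, slide 2 held replicates 1 and 3 of the CH and the RPE, and slide 3 held replicate 2 of each tissue. Each slide was scanned once.

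Abca4, the transporter that clears retinal from the disc, was lowest in the CH, intermediate in the RPE and highest in the PR. At its brighter probe, the log2 ratio was -0.45, -0.68 and -0.21 on the CH arrays (replicates 1 to 3). It was 1.03, 0.70 and 0.49 on the RPE arrays and 2.39, 2.56 and 2.23 on the PR arrays. The 3 groups did not overlap, with the PR highest and the CH lowest. The other probe gave -0.41, -0.75 and -0.27 in the CH, 0.91, 0.62 and 0.58 in the RPE and 2.01, 2.21 and 1.81 in the PR, in the same order and with no overlap either.

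Abca4 was 3.14 fold higher in PR than in RPE (log2 difference 1.65 ± 0.17, SE, 95% interval 1.28 to 2.03, limma adjusted p = 1.95e-05). It was 7.16 fold higher in PR than in CH (2.84 ± 0.17, limma adjusted p = 3.46e-07). At the other probe the PR and the RPE differed by 2.48 fold (1.31 ± 0.16, limma adjusted p = 6.45e-05), which lies just under the fold threshold. The difference from the CH passed there too, at 5.62 fold (2.49 ± 0.16). Within slide 3, the one slide with PR and RPE arrays, PR minus RPE was 1.86 at the brighter probe and 1.60 at the other. With slide as a fixed block the values were 1.96 and 1.69. Slide 1 held only PR arrays, so for the PR these values rest on replicate 2 alone.

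Between the RPE and the CH, Abca4 differed by 2.28 fold (1.19 ± 0.17, 95% interval 0.81 to 1.56, limma adjusted p = 0.00118). The other probe gave 2.27 fold (1.18 ± 0.16, limma adjusted p = 8.94e-04). Both stayed under the fold threshold of 2.5. With a threshold of 2, Abca4 and Retsat were called higher in the RPE, 2 of the 5 genes against 0.949% of all genes. The difference was 1.09 within slide 2 and 1.38 within slide 3, and with slide as a block it was 1.19.

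**Figure D2:**
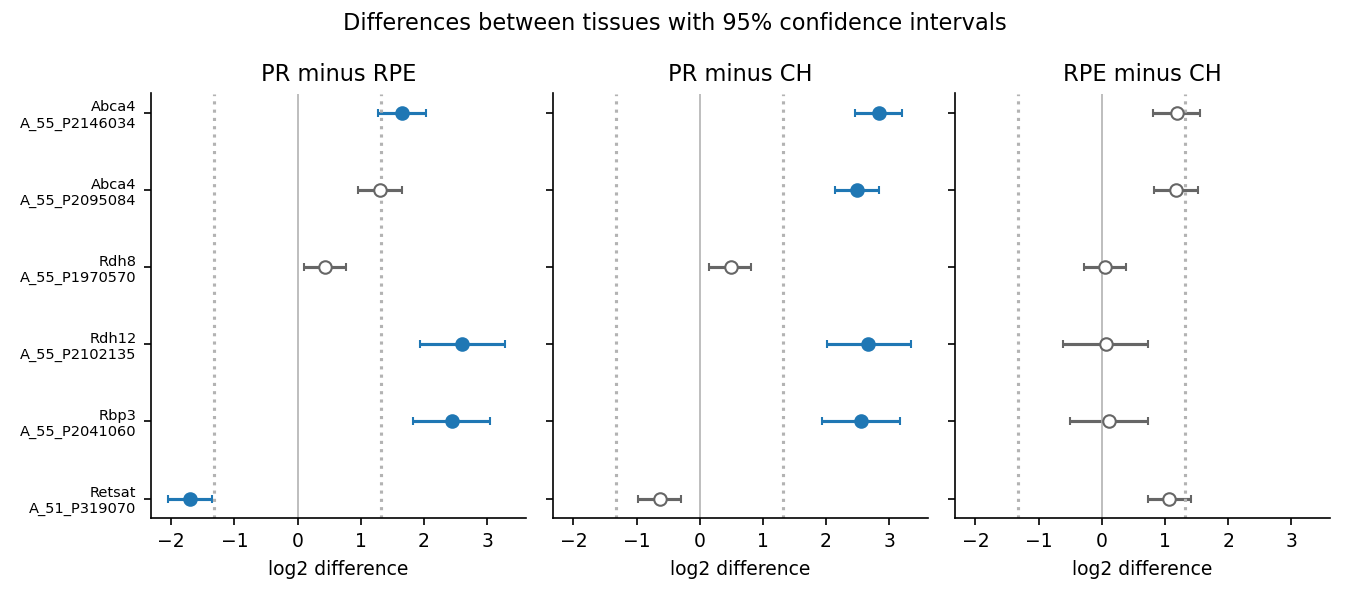
Log2 difference between tissues for the 6 probes, with 95% confidence intervals from limma. Filled points passed both thresholds, open points did not, and dotted lines mark a fold change of 2.5. Abca4 and Retsat lie right of 0 in RPE minus CH, where the intervals of Rdh8, Rdh12 and Rbp3 span 0.

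RNA of rods was present on all arrays. Its tissue means had the same order as those of Abca4, while its CH and RPE arrays overlapped. The mean log2 ratio of the 10 rod markers was -1.21, -0.76 and -0.42 on the CH arrays, 0.36, -0.56 and -0.31 on the RPE arrays and 3.39, 3.60 and 3.59 on the PR arrays. The PR means are not exact, since 5 of the 10 were saturated on all PR arrays. All 10 had a higher mean in RPE than in CH, by 0.35 to 0.98 on the log2 scale (median 0.57), and 0 of 10 were called. The difference of Abca4, 1.19, lay above this range, and those of Rbp3 and Rdh12, 0.12 and 0.06, lay below it. Measured on each array relative to the mean of the rod markers, Abca4 was at 0.76, 0.07 and 0.21 in the CH and at 0.67, 1.26 and 0.81 in the RPE. The groups overlapped and the difference of 0.56 had a two-sided exact permutation p of 0.20. With 3 arrays against 3 this p cannot go below 0.10, so the test cannot decide whether the groups differ. The measure relative to the rod markers was chosen after the values were seen. For all 5 genes the adjusted exact p was between 0.33 and 0.50, under the same limit, and no conclusion is drawn from it. The part of rod RNA in the RPE minus CH difference of Abca4 was not tested.

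**Figure D3:**
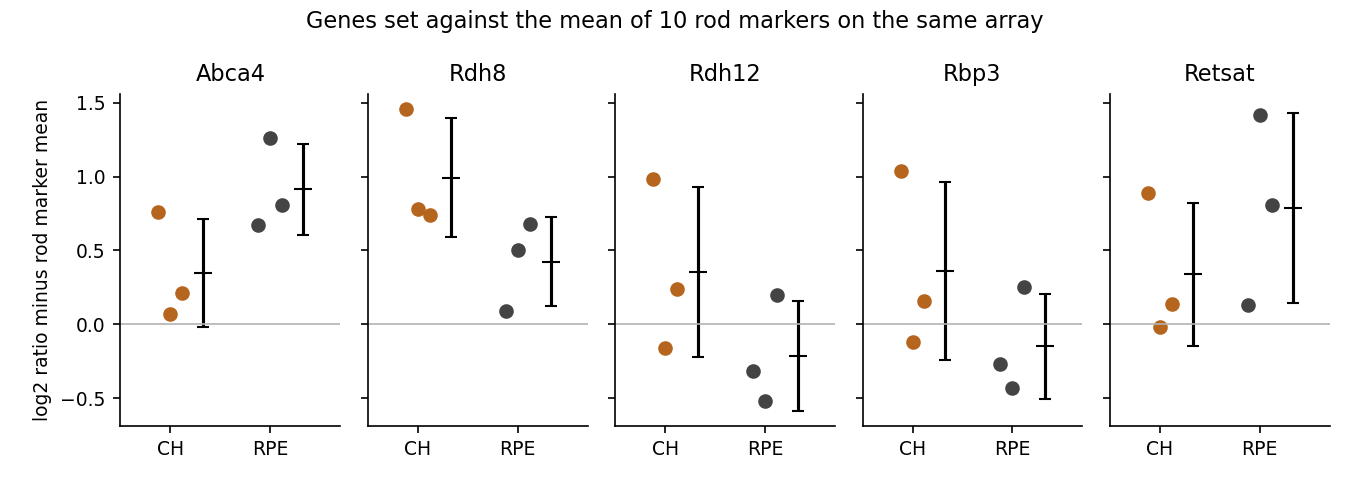
Log2 ratio of each gene minus the mean log2 ratio of 10 rod markers on the same array, for the CH and RPE arrays. Points are arrays and bars are the mean ± SD of 3. Abca4 averages 0.35 in the CH and 0.91 in the RPE, with CH replicate 1 above RPE replicate 1. Where a gene itself hardly differs, as Rdh8, the gap is that of the rod markers subtracted.

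Rdh12, the reductase of the inner segment, was high in the PR, and the other tissues were not told apart. Its log2 ratio was -0.23, -0.92 and -0.18 on the CH arrays, 0.04, -1.08 and -0.11 on the RPE arrays and 2.00, 2.46 and 2.22 on the PR arrays. All PR arrays stood apart from the 6 others, and the CH and RPE arrays overlapped. It was 6.11 fold higher in PR than in RPE (2.61 ± 0.30, 95% interval 1.94 to 3.28, limma adjusted p = 4.58e-05) and 6.38 fold higher than in the CH (2.67 ± 0.30, limma adjusted p = 3.23e-05). The RPE and the CH differed by 0.06 ± 0.30 (95% interval -0.61 to 0.73, limma adjusted p = 0.914), and with 3 arrays a tissue a difference inside this interval is not excluded. From the authors' series table of Cy5 values, the same test gave 2.29 for PR minus RPE (adjusted p = 0.0241) and 2.24 for PR minus CH (adjusted p = 0.0241), and the calls were lost.

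Rbp3, which encodes the secreted retinoid carrier IRBP, followed nearly the same pattern. It was at -0.17, -0.88 and -0.26 on the CH arrays, at 0.10, -0.99 and -0.06 on the RPE arrays and at 2.09, 2.12 and 2.15 on the PR arrays. Its PR arrays had the smallest SD of any of the 5 genes and 3 tissues (0.03), and again only the PR stood apart. It was 5.42 fold higher in PR than in RPE (2.44 ± 0.27, 95% interval 1.82 to 3.05, limma adjusted p = 4.07e-05) and 5.88 fold higher than in the CH (2.56 ± 0.27, limma adjusted p = 2.44e-05). The RPE and the CH differed by 0.12 ± 0.27 (95% interval -0.50 to 0.73, limma adjusted p = 0.814).

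In both genes the lowest CH array and the lowest RPE array were those of replicate 2, on slide 3. Within slide 3, PR minus RPE was larger, 3.54 for Rdh12 and 3.11 for Rbp3. With slide as a block it was 3.43 and 3.00, and PR minus CH was 3.49 and 3.11. These values too rest on PR replicate 2 alone for the PR. RPE minus CH was 0.17 for Rdh12 and 0.23 for Rbp3 within slide 2 and -0.16 and -0.11 within slide 3. The rod markers also had their lowest RPE mean on replicate 2 (-0.56), while in the CH replicate 1 was lowest (-1.21). With each array left out in turn, PR minus RPE ranged from 2.26 to 2.82 for Rdh12 and from 2.10 to 2.65 for Rbp3. Beyond these fits, the part of the slide, or of RPE replicate 2, in these values was not tested.

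Rdh8, the reductase of the outer segment, showed a small difference at a dim probe. Its log2 ratio was 0.25, 0.03 and 0.32 on the CH arrays, 0.46, -0.06 and 0.36 on the RPE arrays and 0.82, 0.53 and 0.73 on the PR arrays. The PR arrays were above all others, if narrowly, with the lowest PR array at 0.53 and the highest RPE array at 0.46. The difference was 1.35 fold against the RPE (0.44 ± 0.15, 95% interval 0.10 to 0.77, limma adjusted p = 0.0342) and 1.40 fold against the CH (0.49 ± 0.15, 95% interval 0.15 to 0.82, limma adjusted p = 0.0190). Neither passed, and with the processing chosen here both intervals end below a log2 difference of 1. The intervals measure the spread between arrays. They do not include any effect of the background offset on so dim a probe, which was not tested. The RPE and the CH differed by 0.05 ± 0.15 (95% interval -0.28 to 0.39). Within slide 3 the PR was higher by 0.59 than the RPE and by 0.50 than the CH. Over all alternatives, PR minus RPE ranged from 0.28 to 0.74 and PR minus CH from 0.35 to 0.81, all under the fold threshold.

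Retsat, the retinol saturase, was lowest in the PR, where the other genes were highest. It was at -0.32, -0.77 and -0.28 on the CH arrays, at 0.49, 0.86 and 0.49 on the RPE arrays and at -1.16, -1.09 and -1.01 on the PR arrays. The RPE was highest and the PR lowest, and no groups overlapped. The PR was 3.26 fold lower than the RPE (-1.70 ± 0.15, 95% interval -2.05 to -1.36, limma adjusted p = 8.43e-06). It was 1.55 fold lower than the CH (-0.63 ± 0.15, limma adjusted p = 0.00567), under the fold threshold. This difference was -0.32 within slide 3 and -0.60 with slide as a block, both with PR replicate 2 alone for the PR. The RPE was 2.10 fold higher than the CH (1.07 ± 0.15, 95% interval 0.73 to 1.42, limma adjusted p = 0.00128), with 0.79 within slide 2 and 1.64 within slide 3. The 6 measured RPE markers moved with it on average, though Best1, close to background, did not. Their mean log2 ratio ranged from 1.59 to 2.11 in the RPE, from 0.40 to 0.97 in the CH and from -2.80 to -2.53 in the PR. The RPE and CH means are not exact. Rpe65 and Ttr were saturated on all RPE arrays, Ttr on all CH arrays, and Kcnj13 and Lrat on some RPE arrays. The part of these markers in the difference was not tested.

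**Figure D4:**
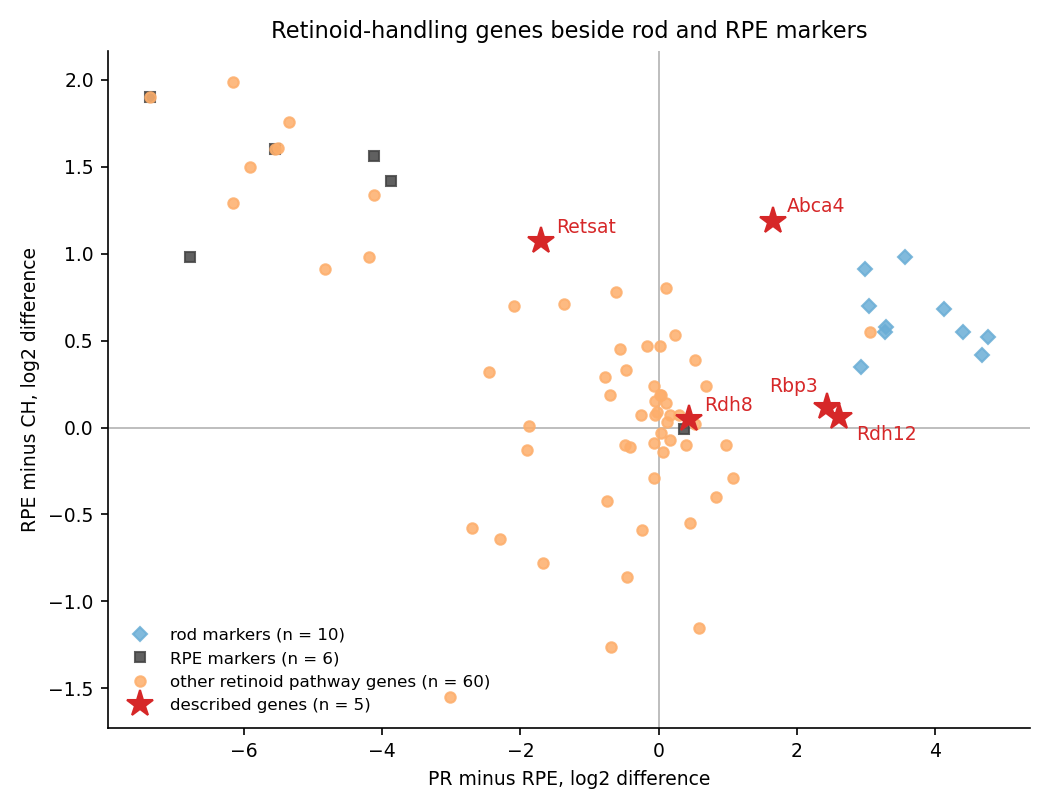
Log2 difference PR minus RPE (horizontal) against RPE minus CH (vertical) for the 5 genes (stars), 10 rod markers, 6 RPE markers and 60 other retinoid pathway genes, each at its brightest probe. Rpe65 and Lrat are drawn both as markers and as pathway genes, and saturated probes at their measured difference, which is not exact. Rbp3 and Rdh12 lie left of and below the rod markers, Abca4 lies above them at a smaller PR minus RPE, and Retsat lies on the side of the RPE markers. The axes share the RPE arrays, so the spread along the diagonal is partly built in.

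The order of the tissues was thus PR, RPE, CH for Abca4 and RPE, CH, PR for Retsat, with no overlap between the arrays at any step. The share of all genes separated in this way is not given here, so the separation is only a description. For Rdh12, Rbp3 and Rdh8 the PR came first, and the RPE and the CH did not differ beyond their spread. The differences of Abca4, Rdh12 and Rbp3 between the PR and the RPE, 1.65 to 2.61, were below those of the 5 rod markers not saturated on all PR arrays, 2.92 to 4.68. Rdh12 and Rbp3 lay within the range of the 8 cone markers, 2.41 to 4.33, and Abca4 lay below it.

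Next, the rest of the retinoid pathway was compared, as 6 lists of 61 genes of which 60 had a probe of that name. In the PR, 1 of the 60 was called higher than in the RPE and 19 were called lower, with a median log2 difference of -0.24, where 5.23% and 10.9% of all genes were called. Between the RPE and the CH, 6 were called higher in the RPE and 1 lower, at a median of 0.11, against 0.18% and 1.75% of all genes. Each list is given as its counts, to be read against these shares, and the lists are small.

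Among 17 retinal reductases and related short-chain dehydrogenases, the enzyme family of Rdh8 and Rdh12, 0 were called higher and 3 lower in PR than in RPE (median 0.02, range -6.15 to 1.07), a count near the 10.9% of all genes called lower. Rdh10, a retinol dehydrogenase, was lower by a log2 difference of -6.15 ± 0.28 (limma adjusted p = 8.37e-08). Rdh5, the 11-cis-retinol dehydrogenase of the RPE, was saturated on all RPE arrays and at least 6.93 fold lower in the PR. Dhrs4 was 2.59 fold lower. Rdh10 and Rdh5 were also called higher in RPE than in CH, Rdh10 by 1.99 on the log2 scale and Rdh5 with no exact size, since it was saturated on all RPE arrays. The enzymes with the largest difference on the side of Rdh12 were Rdh1 (1.07, limma adjusted p = 2.76e-04) and Rdh13 (0.97, limma adjusted p = 4.11e-05), both under the fold threshold and named after their values were seen.

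Of the 15 other ABCA transporters, 1 was higher and 2 were lower in PR than in RPE (median 0.06), near the shares of all genes, 5.23% and 10.9%. Abca13 was 8.29 fold higher in the PR (3.05 ± 0.17, limma adjusted p = 2.78e-07). It had a mean log2 ratio of 1.95 ± 0.12 in the PR, -1.10 ± 0.36 in the RPE and -1.65 ± 0.13 in the CH (SD, n = 3). Abca1, the exporter of cellular cholesterol, was 3.73 fold lower and Abca9 3.18 fold lower. Between the RPE and the CH, 0 of the 15 were called.

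Of 8 retinoid carriers and receptors, 0 were higher and 4 lower in PR than in RPE (median -1.50), against 10.9% of all genes called lower, and the other 4 did not pass. Stra6, the receptor for retinol-binding protein, was 71.2 fold lower, Rlbp1, the carrier of 11-cis-retinoid in the RPE, was 40.6 fold lower and Rbp4, the plasma carrier of retinol, was 5.45 fold lower. Of 6 genes of retinoid isomerisation and esterification, 4 were lower in PR than in RPE (median -4.82). Besides Rpe65, Lrat, which makes retinyl esters, was lower by -7.35 ± 0.31, Rrh by -5.51 ± 0.25 and Rgr, an opsin that makes 11-cis-retinal in light, by at least 3.77 fold. Lrat was saturated on 1 of the RPE arrays, so its difference is not exact. Rgr was saturated on all RPE arrays at the brighter of its 2 probes, so its value is only a bound. The study lists Rgr as an RPE signature gene at another transcript entry, with a larger difference from the PR.

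Genes of retinoic acid were lower in the PR or did not pass. Of 8 measured genes of its synthesis, its breakdown and carotenoid cleavage, 4 were lower than in the RPE and 0 higher (median -1.43). Cyp26b1, which degrades retinoic acid, was 18.2 fold lower, Aldh1a2 and Aldh1a3, which make it, were 8.07 and 6.48 fold lower, and Bco2, a carotenoid cleavage enzyme, was 4.27 fold lower. Aldh1a2 was the gene of the 60 called lower in RPE than in CH (log2 difference -1.55). Of the 6 retinoid receptors, Rarg and Rarb were lower in the PR, by 4.89 and 3.68 fold, and the other 4 were not called.

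Last, the genes most like each of the 5 over the 9 arrays were sought, among 21461 genes well above background on all arrays of at least 1 tissue. The measure was Pearson's r of the log2 ratio, and the points share a reference and fall in 3 tissues. Rbp3 and Rdh12 were each other's nearest gene (r = 0.9963), followed for Rdh12 by Gpsm1 (0.9915) and Racgap1 (0.9909) and for Rbp3 by Gpsm1 (0.9940) and A930002H24Rik (0.9935). Those near Abca4 were Disp2 (0.9975), Armc9 (0.9954) and Extl2 (0.9954). They shared its order with smaller steps, with Disp2 at 0.81 for PR minus RPE and 0.58 for RPE minus CH. Nearest to Rdh8 were Gal (0.9867) and 2 probes without a gene symbol, A_55_P1997215 (0.9864) and XM_978724 (0.9820). For Retsat they were the transcripts ENSMUST00000099807 (0.9919) and ENSMUST00000064032 (0.9910), and Tollip (0.9909). ENSMUST00000064032 had the larger differences of these, -1.86 for PR minus RPE and 1.22 for RPE minus CH.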

How the data were processed

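Gene expression was measured in 3 samples each of the CH, RPE and PR on 9 dual-colour arrays. The authors extracted the scans with Agilent Feature Extraction 9.5.3.1 and used limma in R 2.14.0, per the labels and the methods. The deposited scanner files hold the mean signal and median local background of each spot as intensity values, not normalized, and processed signals that were also deposited as intensity. The deposited series table holds log2 values that follow the Cy5 channel (r between 0.985 and 0.999 with the log2 Cy5 signal used here). Its centring and normalization are not given in the sources used here, and its column medians lie between 9.38 and 9.55. These last 2 served only as alternatives.

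Starting from the mean signals, normexp with an offset of 50 removed the background, and loess within each array normalized the log2 ratio of Cy5 to Cy3. Of 43020 spots that are not controls, 228 to 586 per array were marked as outliers and left out. Spots of a probe were averaged (399 of 39429 probes). Tissue means were fitted over all 9 arrays with limma 3.58.1 in R 4.3.3, with Benjamini-Hochberg adjustment over all probes, and the fit was tested on simulated data. A difference was called above 2.5 fold where the adjusted p was also below 0.01, the thresholds of the study's methods. Counts of genes use the probe with the highest mean log2 Cy5 signal. A probe saturated on all arrays of a tissue has only a bound, from Cy5 after loess and Aquantile, open to dye bias. With 3 arrays a tissue, precision is limited by their number. Probes were named from the files and from RefSeq (GRCm38.p6), which named 26055 probes through their accession, 3195 through a current and 930 through an older symbol, while 9249 kept the name in the files. Tables and plots used Python 3.11.15 with numpy 2.4.6, pandas 2.3.3 and matplotlib 3.10.9.

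The 5 genes, the 6 pathway and 8 marker lists and the tests were chosen with earlier results of these data known. Named are all probes of the 5 genes, up to 4 pathway genes per list and direction called in PR minus RPE, the 3 genes most like each of the 5, and a few markers. A few genes that meet this rule are not reported here. Best1 was added after its values were seen. Alternatives covered background, normalization, reference channel, arrays fitted, blocks, spot filters, variance model, thresholds and each array left out. The replicate numbers were not used as pairs. Proteins and the human arrays were not analysed here.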

Additional observations from a re-analysis of the deposited data

How the results depend on the processing

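The counts of the 5 genes called were within 1.5 times under 26 of the 27 alternatives that give a count; the values within 1 slide give none. With a fold change above 2, 2 genes were called higher in RPE than in CH in place of 0. The authors' series table left 2 genes called higher in PR than in RPE and 2 than in the CH in place of 3, without Rdh12. No called difference of the 5 genes changed its sign. The small RPE minus CH differences of 3 genes did, all uncalled. They became -0.22 for Rdh12 and -0.21 for Rbp3 with median centring, -0.04, -0.11 and -0.13 for Rdh12, Rbp3 and Rdh8 from the Cy5 channel alone, and -0.05, -0.17 and -0.21 from the series table. With each array left out in turn they ranged from -0.17 to 0.41, -0.10 to 0.45 and -0.05 to 0.21. The cause was not tested. The second probe of Abca4 passed in PR minus RPE with the processed signals (1.46), median centring (1.67), the Cy5 channel (1.70) and the series table (1.71). It also passed with slide as a random block (1.34) and without RPE replicate 1 or PR replicate 3 (1.41 each). Slide as a fixed block gave 1.69, from PR replicate 2 alone for the PR. The PR minus CH difference of Retsat was -0.30 with the processed signals.

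With the replicate number as a block, PR minus RPE kept its values with adjusted p between 1.65e-05 and 2.26e-04 for the called genes and the second probe of Abca4, and 0.0061 for Rdh8, and it changed no call of the 5 genes. The deviations of same-numbered arrays from their tissue means had r between -0.0780 and 0.286. The pairs of replicate 2, which also share slide 3, had 0.164 to 0.286, so that number and slide cannot be told apart there. All pairs of replicate 1 were below 0. Those of replicate 3 ran from -0.0336 (CH with RPE) to 0.285 (RPE with PR, on different slides). Arrays of different numbers reached 0.246 (CH replicate 3 with PR replicate 1). The numbers were not taken as pairs.

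Over all genes, the processed signals called 2835 higher in PR than in RPE in place of 1658 and 3246 than in the CH in place of 1929, and a fold change above 2 called 2791 and 3164. Genes higher in RPE than in CH, 57, numbered 9 with median centring, 17 from the Cy5 channel, 15 from the series table, 93 with array weights and, with 1 array left out, 15 (CH replicate 2), 151 (CH replicate 3) and 33 (RPE replicate 2). Genes lower there, 554, numbered 1046 with median centring, 335 from the series table and 1144 with a fold change above 2. Of the pathway genes, 6 higher in the RPE became 2 with median centring, 0 from the Cy5 channel or the series table and 3 when CH replicate 2 or RPE replicate 2 was left out. The 1 gene lower there became 3 with median centring or a fold change above 2, and 2 when CH replicate 3 or RPE replicate 1 was left out. The 1 pathway gene higher in PR than in RPE became 2, and the reductases 1 in place of 0, with the processed signals or a fold change above 2 (Rdh1) and with the Cy5 channel or the series table (Rdh13). The 4 genes of isomerisation lower in the PR became 2 with saturated spots left out or from the series table, and the 3 reductases became 1 from the series table.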
